A study of Mus musculus with 4 samples.

Results

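Imprinted genes are genes of which mainly the copy from one parent is transcribed, and 43 of them were followed here through the knockdown of the transcription factors Esrrb and Sox2 in mouse embryonic stem (ES) cells. The members are a list of gene symbols, and an array probe carrying a member's symbol was used when its detection score, read as 1 minus the detection p-value, lay above 0.99 on all 4 arrays of at least 1 group. The brightest such probe stood for the gene. This left 24 of the 43 members, among 8248 genes tested in all. Of the 24, 12 are known as paternally expressed, 11 as maternally expressed, and Gnas gives transcripts from either or both copies.

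The cells, labelled E14, were transfected with short hairpin RNAs, selected with puromycin for 2 days and harvested, and biotin-labelled RNA was read on Illumina bead arrays. The design has 4 groups of 4 arrays lettered A to D: an Esrrb hairpin, a Sox2 hairpin, both hairpins together (here called dual), and a GFP hairpin as the control, so that all groups had been transfected and selected. The labels give a single ES cell type and do not name the clone, and they do not say whether a group's arrays come from separate transfections, so the p-values rest on variation among arrays that may be purely technical. Levels are log2 intensities after quantile normalization with an offset of 16, and a gene was called changed when limma's moderated test gave an adjusted p below 0.05, with Benjamini-Hochberg adjustment over all 8248 genes of a comparison. Differences are given ± their standard error.

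Imprinting is laid down in the germ line as DNA methylation of control regions, which is then kept through the cell divisions of the embryo while the rest of the genome is reset. Many imprinted genes act on growth: the kinship view holds that paternally expressed ones tend to promote growth of the fetus and placenta and maternally expressed ones tend to restrain it. ES cells carry these marks in culture but may lose them, and most imprinted genes are best known from the placenta, the fetus and the brain. An expression array reads the sum of both copies, so which parental copy was transcribed was not measured here, and parental expression is given below as background from other studies. In bulk RNA, fewer cells of a type and less RNA per cell cannot be told apart.

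Both targeted genes were lower with their own hairpin. Esrrb differed from GFP on the log2 scale by -2.11 ± 0.07 with its own hairpin, -1.77 ± 0.07 in the dual knockdown and -1.21 ± 0.07 with the Sox2 hairpin. Sox2 differed from GFP by -0.45 ± 0.08 with its own hairpin, -0.93 ± 0.08 in the dual knockdown and -0.55 ± 0.08 with the Esrrb hairpin, so each factor was also lower with the other's hairpin (all adjusted p below 0.05). All 10 listed ES cell markers were detected, with a summed intensity of 61963 to 71374 on the Esrrb arrays, 61123 to 64293 on the Sox2 arrays and 56105 to 61272 on the dual arrays, against 78370 to 81169 on the GFP arrays. Most of this sum was the bright Dppa5a, which was not called in any knockdown. In the Esrrb, Sox2 and dual knockdowns 7, 9 and 9 of the 10 markers were lower, with medians of -0.53, -1.10 and -1.17. The 10 include the targeted Esrrb and Sox2, whose falls with their own hairpins follow from the design. Esrrb intensity averaged 2691, 4804 and 3253 in the Esrrb, Sox2 and dual groups, against 12841 with GFP, a large part of the fall in the sum. Over all genes 5.77%, 21.5% and 22.3% were lower. The A and B arrays stood apart from the C and D arrays on the second principal component (13.7% of the variance, against 48.3% on the first), and differences within each set are plotted for all detected members and given in words for some of them.

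Not every member could be read. H19, Meg3, Copg2 and Zrsr1 had no probe. Another 15 had a probe that did not reach the detection rule, namely the paternally expressed Rtl1, Sgce, Plagl1, Magel2, Nnat, Nap1l5, Rasgrf1 and Mcts2 and the maternally expressed Zim1, Ube3a, Tspan32, Osbpl5, Asb4, Calcr and Gatm, and 10 of these 15 were detected on 0 of 16 arrays. Of the 24 that were kept, 21 were detected on all 16 arrays. Peg10 was detected on 3 of the 4 GFP arrays, Ascl2 on 3 of the 4 GFP arrays and 3 of the 4 Esrrb arrays, and Usp29 on 3 of the 4 Sox2 arrays and 3 of the 4 GFP arrays, so these entered the list partly through the groups where they are detected throughout.

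RefSeq promoter windows (GRCm38.p6), running from 250 bases before to 50 bases after an annotated start, were given for 20 of the 24 members, 34 windows in all, since several genes have more than 1 start. Cdkn1c, Peg10, Impact and Nap1l4 had none. The median member window held 61.6% G and C, against 52.7% over all 32851 windows, and a CpG content of 0.637 of that given by its base composition, against 0.384. A search for 4 motifs covered both strands. The estrogen-related receptor core AAGGTCA, the element bound by Esrrb, was found in 0 of the 34 windows, against 4.72% of all windows. The Sox core ACAATG was found in 1 of 34, against 12.6%. The hexamer TGCCGC, bound when methylated by the imprint-keeping protein Zfp57, was found in 6 of 34 windows of 5 genes, against 11.6%. That count includes overlapping windows of Mest that hold the same matches. The E-box CACGTG was found in 2 of 34, against 7.15%. These are matches of letters in short windows and say nothing of binding elsewhere in a locus.
The windows shown are those of called genes that hold a match, with the match in capitals on the strand of the gene, together with those of Dio3, the gene that differed most between the Sox2 and dual knockdowns, and of Peg3, whose window shares 263 bases with that of Usp29 on the other strand and neither of which holds a match.
Igf2, chr7:142661222-142661521 on the minus strand, 1 of its several annotated starts, with the Sox core (as CATTGT) and the Zfp57 hexamer (as GCGGCA):
Igf2: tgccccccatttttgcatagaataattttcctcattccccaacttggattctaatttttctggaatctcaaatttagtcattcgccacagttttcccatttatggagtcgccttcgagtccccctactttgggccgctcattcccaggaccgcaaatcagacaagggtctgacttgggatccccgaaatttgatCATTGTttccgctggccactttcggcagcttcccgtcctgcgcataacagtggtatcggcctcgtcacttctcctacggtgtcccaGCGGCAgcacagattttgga
Grb10, chr11:12037371-12037670 on the minus strand, with the Zfp57 hexamer (as GCGGCA):
Grb10: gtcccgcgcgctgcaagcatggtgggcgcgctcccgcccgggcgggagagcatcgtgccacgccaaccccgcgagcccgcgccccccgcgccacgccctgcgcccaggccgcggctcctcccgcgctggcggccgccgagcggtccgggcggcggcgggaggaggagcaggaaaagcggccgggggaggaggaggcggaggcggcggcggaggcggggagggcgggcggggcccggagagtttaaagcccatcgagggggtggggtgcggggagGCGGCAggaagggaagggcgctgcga
Igf2r, chr17:12769657-12769956 on the minus strand, with 2 E-boxes:
Igf2r: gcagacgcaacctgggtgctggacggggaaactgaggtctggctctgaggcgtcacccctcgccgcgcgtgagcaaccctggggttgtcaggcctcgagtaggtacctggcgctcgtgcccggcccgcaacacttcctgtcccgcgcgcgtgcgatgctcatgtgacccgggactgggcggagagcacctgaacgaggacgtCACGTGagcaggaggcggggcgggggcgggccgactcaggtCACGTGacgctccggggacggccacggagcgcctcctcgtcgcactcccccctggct
Snrpn, chr7:60005150-60005449 on the minus strand, with the Zfp57 hexamer (as GCGGCA):
Snrpn: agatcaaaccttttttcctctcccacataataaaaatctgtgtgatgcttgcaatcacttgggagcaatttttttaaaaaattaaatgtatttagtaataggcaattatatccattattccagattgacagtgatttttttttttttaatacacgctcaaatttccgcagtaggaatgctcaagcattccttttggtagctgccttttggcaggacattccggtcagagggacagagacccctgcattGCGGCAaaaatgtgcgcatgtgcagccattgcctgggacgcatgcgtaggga
Commd1, chr11:22982235-22982534 on the minus strand, with the Zfp57 hexamer (as GCGGCA):
Commd1: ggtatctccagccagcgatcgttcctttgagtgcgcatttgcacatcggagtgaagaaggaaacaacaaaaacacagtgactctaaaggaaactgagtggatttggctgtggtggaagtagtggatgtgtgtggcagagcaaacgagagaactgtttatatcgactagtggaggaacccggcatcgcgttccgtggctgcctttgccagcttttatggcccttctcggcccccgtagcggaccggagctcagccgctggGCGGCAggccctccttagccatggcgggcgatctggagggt
Dio3, chr12:110278980-110279279 on the plus strand:
Dio3: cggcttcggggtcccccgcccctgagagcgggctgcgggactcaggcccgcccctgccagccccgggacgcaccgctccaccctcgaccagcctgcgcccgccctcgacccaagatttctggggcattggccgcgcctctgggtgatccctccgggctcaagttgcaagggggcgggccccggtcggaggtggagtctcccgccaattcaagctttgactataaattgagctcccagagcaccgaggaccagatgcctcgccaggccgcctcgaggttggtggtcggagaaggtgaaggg
Peg3, chr7:6730370-6730669 on the minus strand:
Peg3: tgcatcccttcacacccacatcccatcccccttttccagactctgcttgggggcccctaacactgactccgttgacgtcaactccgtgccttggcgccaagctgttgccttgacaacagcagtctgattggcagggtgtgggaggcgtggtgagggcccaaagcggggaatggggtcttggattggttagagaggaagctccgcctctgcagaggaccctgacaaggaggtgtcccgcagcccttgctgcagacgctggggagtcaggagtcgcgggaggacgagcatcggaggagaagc

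More imprinted genes were higher than lower after knockdown of Sox2, alone or with Esrrb. With the Sox2 hairpin 14 of 24 members were higher and 2 lower than with GFP, where 21.7% of all genes tested were higher and 21.5% lower. In the dual knockdown 12 were higher, 3 lower and 9 not called, against 22.1% higher and 22.3% lower over all genes. With the Esrrb hairpin 6 were higher and 0 lower, against 5.86% higher and 5.77% lower. With the Esrrb hairpin limma gave an unadjusted p below 0.05 for 2 members in the lower direction, Dio3 and Commd1. Among the 21 members detected on all 16 arrays, 12 were higher and 2 lower with the Sox2 hairpin, 10 and 3 in the dual knockdown, and 6 and 0 with the Esrrb hairpin. Medians over the 24 members were 0.16 with the Esrrb hairpin, 0.42 with the Sox2 hairpin and 0.25 in the dual knockdown, against 0.00, -0.00 and -0.01 over all genes tested. All 3 comparisons share the GFP arrays, so their values are set side by side and not correlated.

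The Esrrb result depends on how arrays are scaled. After scaling arrays to a common median in place of quantiles, 0 members were called higher and 0 lower with the Esrrb hairpin, and all genes called fell to 201, against 959 with quantiles. The differences themselves moved little, with Igf2 at 0.31, Cdkn1c at 0.37, Dlk1 at 0.49 and Impact at 0.55. Under that scaling 11 members were higher and 1 lower with the Sox2 hairpin, and 10 were higher and 2 lower in the dual knockdown. The share of all genes called in each direction was not counted under that scaling. The median member then lay above the median of all genes by 0.38 with the Sox2 hairpin and 0.19 in the dual knockdown. Within 1 array set further calls were lost. For Esrrb against GFP these were Igf2 (limma adjusted p = 0.0557 and 0.291 for arrays A and B and C and D) and Cdkn1c (0.110 for C and D). Also lost were the Esrrb calls of Dlk1 (0.106 for A and B), Peg3 (0.244 for A and B) and Mkrn3 (0.205 and 0.0625 for A and B and C and D). For Sox2 against GFP those of Ascl2 (0.215) and Peg3 (0.0987) were lost for A and B, and those of Igf2r, Snrpn and Cd81 as given below. The Sox2 call of Blcap was lost after median scaling (0.0518).

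**Figure D1:**
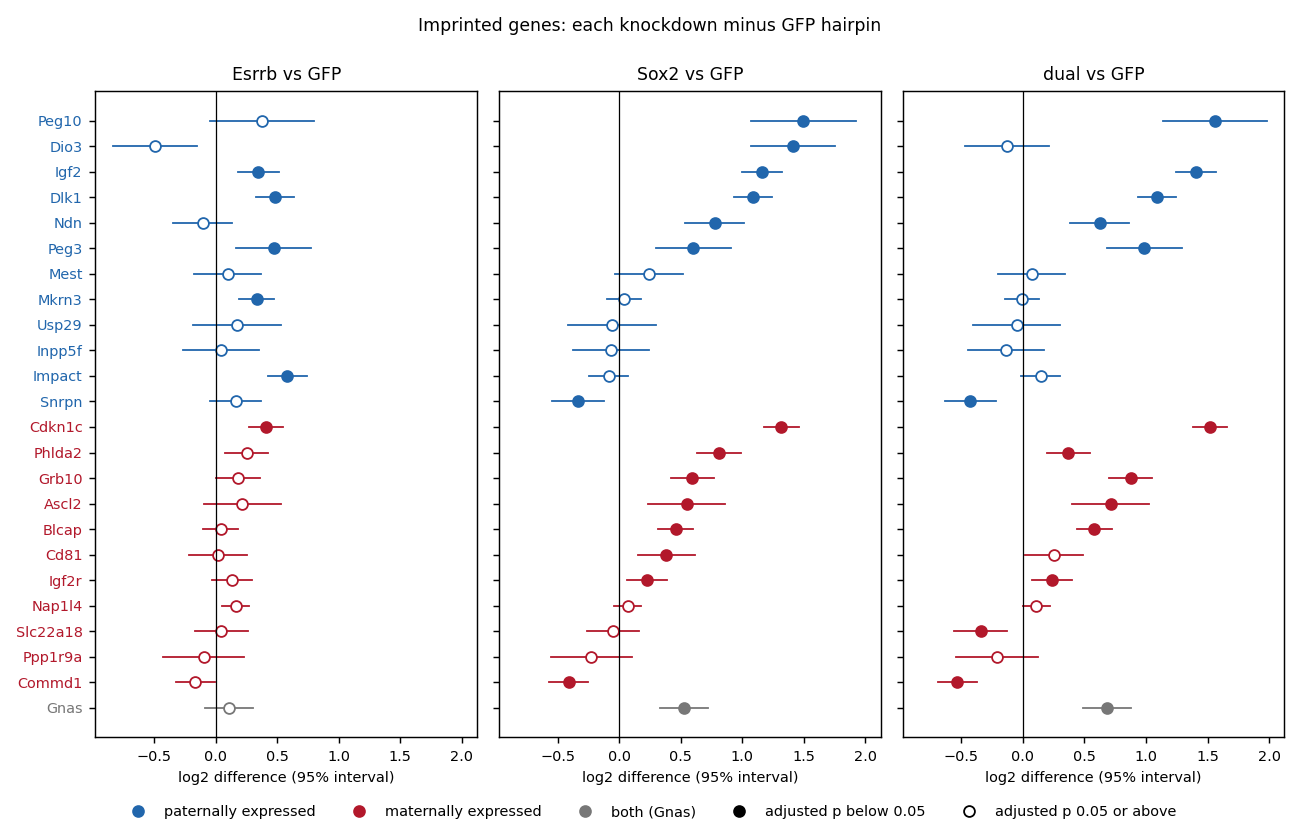
Log2 difference of each of the 24 detected imprinted genes from the GFP hairpin (x axis) for the Esrrb, Sox2 and dual knockdowns, with 95% intervals of the fit; rows are genes, blue paternally and red maternally expressed, grey Gnas. Filled points have an adjusted p below 0.05: 6 genes in the Esrrb panel, 16 in the Sox2 panel and 15 in the dual panel.

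In the Igf2 growth axis the ligand Igf2 and the signalling adaptor Grb10 were higher in the Sox2 and dual knockdowns, while the calls for the receptor Igf2r depended on the processing. In the lines below the 4 values of a group are the arrays A to D. Igf2, the paternally expressed growth factor of the fetus, read 14.05, 14.18, 13.995 and 13.90 on the Esrrb arrays, 14.80, 14.85, 14.82 and 14.91 on the Sox2 arrays and 15.09, 15.14, 15.04 and 15.10 on the dual arrays, against 13.57, 13.75, 13.87 and 13.55 on the GFP arrays. The 4 groups did not overlap, with GFP lowest, then Esrrb, Sox2 and dual. Igf2 was higher by 0.35 ± 0.08 (adjusted p = 0.00738) with the Esrrb hairpin, by 1.16 ± 0.08 (adjusted p = 1.71e-08) with the Sox2 hairpin and by 1.41 ± 0.08 (adjusted p = 1.89e-09) in the dual knockdown, which is 1.27-fold, 2.23-fold and 2.65-fold. Its dual and Sox2 levels differed by 0.25 ± 0.08 (adjusted p = 0.0716), which did not pass the threshold although the arrays did not overlap. Within the A and B arrays Igf2 differed from GFP by 0.46, 1.16 and 1.45 in the Esrrb, Sox2 and dual knockdowns, and within arrays C and D by 0.24, 1.16 and 1.36.

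Igf2r, the maternally expressed receptor that takes Igf2 up for breakdown, read 9.45, 9.49, 9.57 and 9.61 on the Esrrb arrays, 9.60, 9.61, 9.71 and 9.58 on the Sox2 arrays and 9.44, 9.83, 9.63 and 9.64 on the dual arrays, against 9.41, 9.34, 9.37 and 9.48 on the GFP arrays. Its Sox2 arrays lay above all GFP arrays, while the dual array A at 9.44 lay among them. The differences were small: 0.23 ± 0.08 (adjusted p = 0.0242) with the Sox2 hairpin and 0.24 ± 0.08 (adjusted p = 0.0175) in the dual knockdown. The Sox2 call was lost without the Sox2 array C (adjusted p = 0.0707 in limma), without the GFP array B (0.0651) or C (0.0544), and the dual call without the dual array B (0.0537). After median scaling the differences were 0.16 and 0.19 (adjusted p = 0.553 and 0.466), and without scaling 0.054 and 0.078 (0.581 and 0.409), and neither array set alone gave a call. A second, dimmer Igf2r probe gave 0.16 and 0.19 in the Sox2 and dual knockdowns and passed in neither.

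Grb10, an adaptor protein that holds back signalling by the insulin and Igf1 receptors and is maternally expressed in most tissues, read 11.17, 11.32, 11.12 and 11.04 on the Esrrb arrays, 11.56, 11.58, 11.67 and 11.48 on the Sox2 arrays and 11.94, 11.91, 11.64 and 11.95 on the dual arrays, against 10.88, 11.09, 10.95 and 10.99 on the GFP arrays. Both the Sox2 and the dual arrays lay above every GFP array, and the dual array C stood below the other dual arrays. Grb10 was higher by 0.59 ± 0.08 (adjusted p = 3.11e-05) with the Sox2 hairpin and by 0.88 ± 0.08 (adjusted p = 5.16e-07) in the dual knockdown. Dual exceeded Sox2 by 0.28 ± 0.08 (adjusted p = 0.0525). With the array letter as a block the adjusted p of this last difference was 0.0449, and without the dual array C it was 0.0129.

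Cdkn1c rose most among the maternally expressed members. This inhibitor of cyclin-dependent kinases, which restrains division in the fetus and placenta, read 12.40, 12.35, 12.34 and 12.17 on the Esrrb arrays, 13.24, 13.19, 13.25 and 13.22 on the Sox2 arrays and 13.39, 13.54, 13.30 and 13.47 on the dual arrays, against 11.93, 11.84, 11.95 and 11.89 on the GFP arrays. No array of one group overlapped with another group, and the order was the same as for Igf2. The differences from GFP were 0.41 ± 0.07 (adjusted p = 6.44e-04) in the Esrrb knockdown, 1.32 ± 0.07 (adjusted p = 9.60e-10) in the Sox2 knockdown and 1.52 ± 0.07 (adjusted p = 1.77e-10) in the dual knockdown. In the A and B arrays they were 0.49, 1.33 and 1.58, and in the C and D arrays 0.33, 1.31 and 1.46.

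Phlda2, a maternally expressed neighbour of Cdkn1c that restrains growth of the placenta, read 11.26, 11.41, 11.17 and 11.15 on the Esrrb arrays, 11.83, 11.79, 11.67 and 11.94 on the Sox2 arrays and 11.38, 11.56, 11.25 and 11.27 on the dual arrays, against 10.90, 11.02, 11.01 and 11.05 on the GFP arrays. It was highest on the Sox2 arrays, with dual and Esrrb arrays overlapping each other above GFP. With the Sox2 hairpin it was higher than GFP by 0.81 ± 0.08 (adjusted p = 1.44e-06), and in the dual knockdown by 0.37 ± 0.08 (adjusted p = 0.00188). The dual level was below the Sox2 level by a difference of -0.44 ± 0.08 (adjusted p = 0.00433). After median scaling this call was lost (adjusted p = 0.305), as was that of dual against GFP (0.137), and within arrays A and B or C and D dual against Sox2 gave 0.184 and 0.0519. In the Esrrb knockdown the difference of 0.25 ± 0.08 (adjusted p = 0.0620) did not pass, though it did with the array letter as a block (adjusted p = 0.0423).

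The other members of the same stretch of distal chromosome 7 did not move together. Ascl2, a transcription factor needed for trophoblast development, read 5.68, 5.35, 5.96 and 5.80 on the Esrrb arrays, 6.03, 5.61, 6.28 and 6.20 on the Sox2 arrays and 6.18, 6.33, 6.20 and 6.06 on the dual arrays, against 5.25, 5.67, 5.49 and 5.51 on the GFP arrays. It was dim, with the Sox2 array B inside the GFP range, and it was tested because of the Sox2 and dual groups, where it was detected throughout. The differences were 0.55 ± 0.15 (adjusted p = 0.00669) in the Sox2 knockdown and 0.71 ± 0.15 (adjusted p = 9.55e-04) in the dual knockdown. Since those groups brought Ascl2 into the test, these differences support nothing. Slc22a18, an organic cation transporter homologue, read 7.67, 7.63, 7.85 and 7.95 on the Esrrb arrays, 7.78, 7.64, 7.73 and 7.58 on the Sox2 arrays and 7.33, 7.42, 7.52 and 7.26 on the dual arrays, against 7.99, 7.76, 7.63 and 7.53 on the GFP arrays. Only its dual arrays lay below all GFP arrays, and the dual difference was -0.34 ± 0.10 (adjusted p = 0.0108). It was -0.50 within the A and B arrays and -0.19 within the C and D arrays, where the call was lost, as it was after median scaling (adjusted p = 0.144). Cd81, a tetraspanin of the cell surface, read 13.15, 13.12, 13.06 and 13.25 on the Esrrb arrays, 13.41, 13.48, 13.68 and 13.47 on the Sox2 arrays and 13.62, 13.04, 13.56 and 13.30 on the dual arrays, against 13.15, 13.14, 12.96 and 13.24 on the GFP arrays. Sox2 arrays lay above GFP arrays, while the dual arrays were spread from 13.04 to 13.62. Cd81 was higher with the Sox2 hairpin by 0.38 ± 0.11 (adjusted p = 0.0106). This call was lost after median scaling (0.28, adjusted p = 0.280), without scaling (0.18, 0.280) and within arrays A and B (0.30, 0.238). In the dual knockdown it gave 0.25 ± 0.11 (adjusted p = 0.0738), or 0.37 with an adjusted p of 0.00526 in limma when the dual array B was left out. Nap1l4, a histone chaperone, passed in none of the 3 comparisons with GFP, with group means of 12.60, 12.50, 12.54 and 12.43 in the Esrrb, Sox2, dual and GFP groups.

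**Figure D2:**
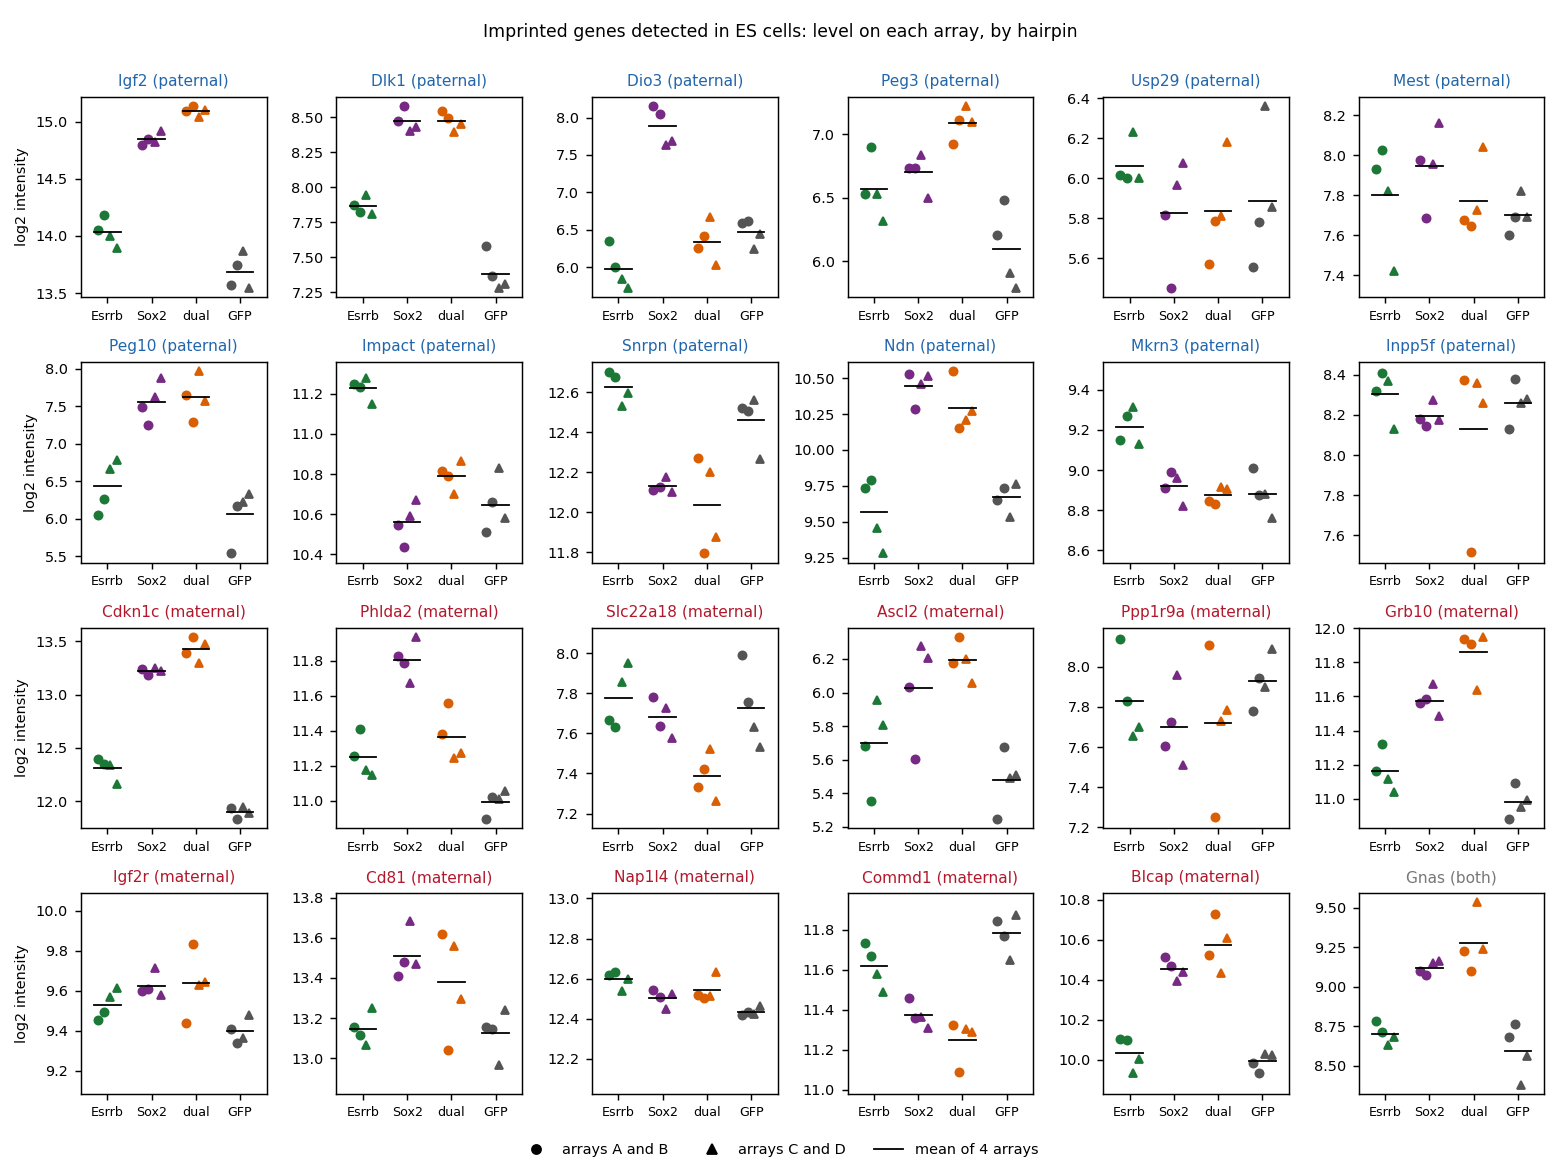
Level (log2 intensity, y axis) of the 24 detected imprinted genes on every array, by hairpin (x axis: Esrrb, Sox2, dual, GFP). Circles are arrays A and B, triangles arrays C and D, and bars the mean of 4; panel axes differ but each spans at least 1 log2 unit. Igf2, Cdkn1c and Dlk1 are above GFP in all knockdowns, and Dio3 is high on the 4 Sox2 arrays only, at 7.64 to 8.16.

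Dlk1 and Dio3 are the paternally expressed protein genes at the ends of one imprinted domain on chromosome 12, and they differed in the dual knockdown. Dlk1, a membrane protein of the Notch ligand type, read 7.87, 7.83, 7.94 and 7.81 on the Esrrb arrays, 8.47, 8.58, 8.40 and 8.43 on the Sox2 arrays and 8.54, 8.49, 8.39 and 8.45 on the dual arrays, against 7.58, 7.36, 7.28 and 7.31 on the GFP arrays. Every knockdown array exceeded every GFP array, and Sox2 and dual arrays covered nearly the same range. The differences from GFP were 0.48 ± 0.07 (adjusted p = 3.37e-04) in the Esrrb knockdown, 1.09 ± 0.07 (adjusted p = 1.47e-08) in the Sox2 knockdown and 1.09 ± 0.07 (adjusted p = 1.06e-08) in the dual knockdown. Dual and Sox2 differed by 0.00, with a 95% interval of -0.15 to 0.15.

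Dio3, the deiodinase that inactivates thyroid hormone, read 6.36, 5.995, 5.84 and 5.72 on the Esrrb arrays, 8.16, 8.05, 7.64 and 7.69 on the Sox2 arrays and 6.26, 6.42, 6.67 and 6.02 on the dual arrays, against 6.58, 6.62, 6.24 and 6.44 on the GFP arrays. The 4 Sox2 arrays lay well above all others, and the dual arrays covered the range of the GFP arrays. The Sox2 difference was 1.41 ± 0.16 (adjusted p = 4.46e-06), a 2.66-fold rise, while the dual difference was -0.13 ± 0.16 (adjusted p = 0.552). Dual differed from Sox2 by -1.54 ± 0.16 (adjusted p = 4.25e-05), or -1.76 for arrays A and B and -1.32 for arrays C and D. Esrrb arrays tended low, and their difference of -0.49 ± 0.16 (adjusted p = 0.0617) passed with the array letter as a block (adjusted p = 0.0232) or without the Esrrb array A (0.0226, at -0.62). In the authors' deposited table of processed ratios, the log2 ratio of Dio3 to GFP was -0.62 for Esrrb, 1.63 for Sox2 and -0.11 for dual. The other genes of this domain on the list, Meg3 and Rtl1, had no probe or were not detected.

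A further pair of paternally expressed genes, Peg10 and Peg3, read higher in the Sox2 and dual knockdowns, though Peg10 was tested through the knockdown groups. Peg10, a gene derived from a retrotransposon and required for the placenta, read 6.05, 6.27, 6.66 and 6.78 on the Esrrb arrays, 7.49, 7.25, 7.63 and 7.87 on the Sox2 arrays and 7.66, 7.29, 7.97 and 7.58 on the dual arrays, against 5.53, 6.18, 6.22 and 6.33 on the GFP arrays. Sox2 and dual arrays lay above every GFP and Esrrb array. Its differences were 1.50 ± 0.20 (adjusted p = 2.07e-05) and 1.56 ± 0.20 (adjusted p = 1.27e-05) in the Sox2 and dual knockdowns, the largest of any member in both comparisons over all arrays at this offset. With an offset of 50 they were 1.14 and 1.19, below those of Cdkn1c at 1.31 and 1.51, and Dio3 or Cdkn1c also ranked first in some fits without 1 array. Because 1 GFP array did not pass detection, the GFP level is close to background. Since the knockdown groups, where it was detected throughout, brought Peg10 into the test, its differences from GFP support nothing. Peg3, a zinc finger protein that acts on growth and maternal behaviour, read 6.53, 6.90, 6.53 and 6.31 on the Esrrb arrays, 6.73, 6.73, 6.84 and 6.50 on the Sox2 arrays and 6.92, 7.11, 7.22 and 7.09 on the dual arrays, against 6.21, 6.49, 5.91 and 5.79 on the GFP arrays. Dual arrays were highest, and the Esrrb array D at 6.31 lay inside the GFP range. The differences were 0.47 ± 0.14 (adjusted p = 0.0455) in the Esrrb knockdown, 0.60 ± 0.14 (adjusted p = 0.00325) in the Sox2 knockdown and 0.99 ± 0.14 (adjusted p = 4.70e-05) in the dual knockdown. The Esrrb call for Peg3 was lost in 12 of the 16 fits that left out 1 array, with adjusted p up to 0.145. Usp29, a ubiquitin-specific protease that shares the promoter window of Peg3 on the other strand, passed in none of these comparisons, with group means of 6.06, 5.83, 5.84 and 5.89 in the Esrrb, Sox2, dual and GFP groups. Mest, a predicted hydrolase, averaged 7.80, 7.94, 7.77 and 7.70 in the same order and did not pass, nor did its 2 other probes. Ppp1r9a, the actin-binding scaffold neurabin, averaged 7.83, 7.70, 7.72 and 7.93 and did not pass.

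The detected genes of the Snrpn domain on chromosome 7, all paternally expressed, went in different directions. Snrpn, which encodes a spliceosomal protein, read 12.70, 12.67, 12.53 and 12.60 on the Esrrb arrays, 12.11, 12.13, 12.18 and 12.10 on the Sox2 arrays and 12.27, 11.80, 12.20 and 11.88 on the dual arrays, against 12.52, 12.50, 12.56 and 12.27 on the GFP arrays. Sox2 arrays lay below all GFP arrays, and the dual arrays A and C at 12.27 and 12.20 were close to the lowest GFP array. Snrpn differed by -0.33 ± 0.10 (adjusted p = 0.0127) in the Sox2 knockdown and -0.43 ± 0.10 (adjusted p = 0.00234) in the dual knockdown. The Sox2 call was lost after median scaling (adjusted p = 0.0822) and within arrays A and B (0.0852) or C and D (0.160), and the dual call within arrays C and D (0.0659). A second probe gave -0.43 and -0.52. Ndn, a growth suppressor of the MAGE family, read 9.73, 9.79, 9.46 and 9.28 on the Esrrb arrays, 10.53, 10.28, 10.46 and 10.51 on the Sox2 arrays and 10.55, 10.15, 10.21 and 10.27 on the dual arrays, against 9.65, 9.73, 9.53 and 9.76 on the GFP arrays. All Sox2 and dual arrays lay above the GFP and Esrrb arrays. Ndn was higher by 0.78 ± 0.11 (adjusted p = 4.92e-05) with the Sox2 hairpin and by 0.62 ± 0.11 (adjusted p = 3.37e-04) in the dual knockdown. Mkrn3, a ubiquitin ligase that in the brain holds back puberty, read 9.15, 9.27, 9.31 and 9.13 on the Esrrb arrays, 8.91, 8.99, 8.96 and 8.82 on the Sox2 arrays and 8.85, 8.83, 8.91 and 8.91 on the dual arrays, against 9.01, 8.88, 8.88 and 8.76 on the GFP arrays. Here the Esrrb arrays stood alone above the rest. Mkrn3 was higher by 0.33 ± 0.07 (adjusted p = 0.00328) in the Esrrb knockdown, against 0.04 ± 0.07 (adjusted p = 0.673) and -0.01 ± 0.07 (adjusted p = 0.940) in the Sox2 and dual knockdowns. The Esrrb call for Mkrn3 was lost after median scaling (adjusted p = 0.469) and within arrays A and B (0.205) or C and D (0.0625). Magel2 and the maternally expressed Ube3a, of the same domain, did not reach the detection rule.

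Impact, the paternally expressed inhibitor of the amino acid sensing kinase Gcn2, behaved like Mkrn3 in that its 4 Esrrb arrays were the highest. Impact read 11.25, 11.24, 11.28 and 11.15 on the Esrrb arrays, 10.54, 10.44, 10.59 and 10.67 on the Sox2 arrays and 10.81, 10.79, 10.70 and 10.86 on the dual arrays, against 10.51, 10.66, 10.83 and 10.58 on the GFP arrays. It was higher by 0.58 ± 0.07 (adjusted p = 7.64e-05) in the Esrrb knockdown, the largest Esrrb difference of any member, within the A and B arrays by 0.66 and within arrays C and D by 0.51. With the Sox2 hairpin it gave -0.08 ± 0.07 (adjusted p = 0.388) and in the dual knockdown 0.15 ± 0.07 (adjusted p = 0.124). Dual was below Esrrb by a difference of -0.44 ± 0.07 (adjusted p = 2.54e-04).

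The remaining called members included Gnas, which encodes the stimulatory G protein alpha subunit and from which several promoters give maternal, paternal or biallelic transcripts. Gnas read 8.78, 8.71, 8.63 and 8.68 on the Esrrb arrays, 9.10, 9.07, 9.15 and 9.16 on the Sox2 arrays and 9.23, 9.10, 9.53 and 9.24 on the dual arrays, against 8.68, 8.76, 8.38 and 8.56 on the GFP arrays. Sox2 and dual arrays lay above the GFP and Esrrb arrays, with differences of 0.52 ± 0.09 (adjusted p = 2.70e-04) and 0.68 ± 0.09 (adjusted p = 2.24e-05). A second Gnas probe gave 0.56 and 0.53, and neither probe was assigned here to one of the promoters. Blcap, a small membrane protein gene with maternal bias in the brain, read 10.11, 10.10, 9.93 and 10.01 on the Esrrb arrays, 10.51, 10.47, 10.39 and 10.44 on the Sox2 arrays and 10.53, 10.73, 10.44 and 10.61 on the dual arrays, against 9.99, 9.94, 10.03 and 10.02 on the GFP arrays. Its Sox2 and dual arrays lay above all GFP arrays, with differences of 0.46 ± 0.07 (adjusted p = 5.29e-05) and 0.58 ± 0.07 (adjusted p = 4.87e-06). Commd1, a protein of copper handling with maternal bias in the brain, read 11.73, 11.67, 11.58 and 11.49 on the Esrrb arrays, 11.46, 11.36, 11.37 and 11.31 on the Sox2 arrays and 11.32, 11.09, 11.30 and 11.29 on the dual arrays, against 11.84, 11.77, 11.65 and 11.87 on the GFP arrays. All Sox2 and dual arrays were below all GFP arrays, with differences of -0.41 ± 0.07 (adjusted p = 3.83e-04) and -0.53 ± 0.07 (adjusted p = 3.12e-05). Its dimmer second probe gave -0.42, which did not pass, and -0.65, which did. Inpp5f, a phosphoinositide phosphatase, averaged 8.31, 8.19, 8.13 and 8.26 in the Esrrb, Sox2, dual and GFP groups and did not pass.

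The members were also counted by the parental copy they are known to be expressed from. Of 12 paternally expressed members, 5 were higher and 0 lower in the Esrrb knockdown, 6 and 1 in the Sox2 knockdown, and 5 and 1 in the dual knockdown. Of 11 maternally expressed members, 1 was higher and 0 lower in the Esrrb knockdown, 7 and 1 in the Sox2 knockdown, and 6 and 2 in the dual knockdown. These counts and the medians below include the paternal Peg10 and the maternal Ascl2, both called higher in the Sox2 and dual knockdowns. Both genes were tested through knockdown groups where they are high, so their calls support nothing. Over all genes 5.86%, 21.7% and 22.1% were higher and 5.77%, 21.5% and 22.3% lower. The medians of the paternally expressed members were 0.25 with the Esrrb hairpin, 0.42 with the Sox2 hairpin and 0.11 in the dual knockdown, and those of the maternally expressed members 0.13, 0.38 and 0.25. Within the A and B arrays the paternal medians were 0.32, 0.28 and 0.12 and the maternal ones 0.12, 0.30 and 0.26, and within the C and D arrays 0.19, 0.56 and 0.11 and 0.13, 0.39 and 0.23. Taken array by array, the median of the paternally expressed members lay at 0.17 to 0.33 on the Esrrb arrays, 0.36 to 0.49 on the Sox2 arrays and 0.05 to 0.32 on the dual arrays, against -0.06 to 0.05 on the GFP arrays. For the maternally expressed members the ranges were 0.09 to 0.18, 0.21 to 0.40 and 0.25 to 0.43, against -0.03 to 0.03. The dual arrays thus spanned 0.05 to 0.32 for paternal and 0.25 to 0.43 for maternal members, ranges that overlap, and the difference between the classes was not tested. Leaving out members with imprinting known mainly from 1 tissue (Cd81, Nap1l4, Ppp1r9a, Commd1, Blcap and Inpp5f) gave paternal medians of 0.33, 0.60 and 0.15 over 11 genes and maternal ones of 0.20, 0.57 and 0.54 over 6.

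**Figure D3:**
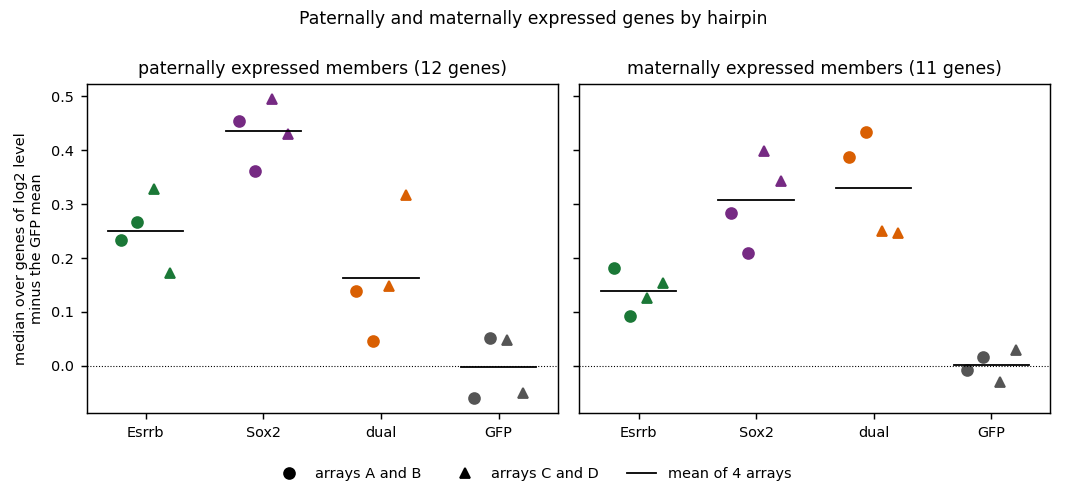
Median over the paternally (12 genes, left) and maternally (11 genes, right) expressed members of the log2 level minus the gene's GFP mean (y axis), 1 point per array, by hairpin (x axis: Esrrb, Sox2, dual, GFP). Circles are arrays A and B, triangles arrays C and D, and bars the mean of the 4 arrays. Every knockdown array of the maternal panel lies above every GFP array, whereas the paternal dual array B, at 0.05, lies level with the highest GFP array.

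The dual knockdown was next set against each single one. Against the Esrrb knockdown, 10 members were higher and 5 lower in the dual knockdown, where 20.6% of all genes were higher and 19.6% lower. The 10 were Igf2, Cdkn1c, Ascl2, Dlk1, Peg3, Peg10, Grb10, Ndn, Gnas and Blcap, and the 5 were Slc22a18, Impact, Snrpn, Mkrn3 and Commd1. Ascl2 did not reach the detection rule in the Esrrb group and was tested through the Sox2 and dual groups, so its call supports nothing. Among the 21 members detected on all 16 arrays, 8 were higher and 5 lower. With arrays scaled to a common median the counts over all members tested were 9 and 1, and the share of all genes in each direction was not counted. The median member then lay above that of all genes by 0.14. Against the Sox2 knockdown, 0 were higher and 2 lower in the dual knockdown, against 3.2% and 3.21% of all genes, and the 2 were Dio3 and Phlda2. The largest differences above 0 were 0.39 for Peg3, 0.28 for Grb10 and 0.25 for Igf2, with adjusted p of 0.128, 0.0525 and 0.0716 in limma, and 5 members had an unadjusted p below 0.05 in this direction. With trended, robust variances limma called 4 higher: Igf2, Cdkn1c, Grb10 and Impact. The Sox2 against the Esrrb knockdown gave 11 higher and 4 lower, where 22.1% of all genes were higher and 21% lower. Among the 21 members detected on all 16 arrays, 10 were higher and 4 lower.

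Whether the 2 hairpins added up was tested gene by gene as the dual difference from GFP minus the sum of both single differences. Of the 24 members, 0 lay above the sum and 4 below it, against 1.61% and 1.27% of all genes, and 0 had an unadjusted p below 0.05 above the sum. The 4 were Dio3 (-1.05 ± 0.23 (adjusted p = 0.0207)), Phlda2 (-0.69 ± 0.12 (adjusted p = 0.00388)), Dlk1 (-0.48 ± 0.10 (adjusted p = 0.0176)) and Mkrn3 (-0.38 ± 0.09 (adjusted p = 0.0415)). Dio3 and Phlda2 were raised by the Sox2 hairpin and lower with both hairpins, Dlk1 was raised by each hairpin and no higher with both than with Sox2 alone, and Mkrn3 passed against GFP with the Esrrb hairpin alone. All 12 paternally expressed members had values below 0, with a median of -0.26, and the maternally expressed median was -0.12, against 0.00 over all genes. Above 0 were 4 of the 11 maternally expressed members and 4164 of all 8248 genes. All members were read on the same arrays, and the difference between the classes was not tested. In the A and B arrays the values of Dio3, Phlda2, Dlk1 and Mkrn3 were -1.34, -0.71, -0.39 and -0.38, and in the C and D arrays -0.76, -0.68, -0.57 and -0.38. With arrays scaled to a common median only Dio3 passed, and the Mkrn3 call was lost in 13 of the 16 fits without 1 array. Igf2 at -0.10 ± 0.11 (adjusted p = 0.734), Peg10 at -0.31 ± 0.28 (adjusted p = 0.658) and Grb10 at 0.10 ± 0.12 (adjusted p = 0.747) did not pass, with 95% intervals of -0.33 to 0.13, -0.91 to 0.29 and -0.15 to 0.35.

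**Figure D4:**
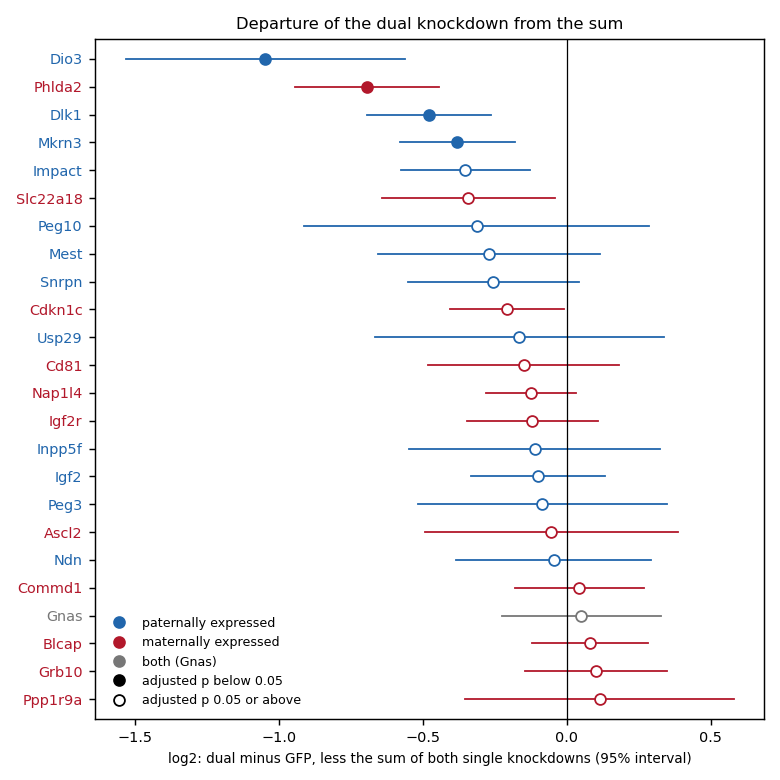
Departure of the dual knockdown from the sum of the single ones on the log2 scale (x axis, with 95% intervals) for the 24 detected imprinted genes, ordered from most negative at the top. Blue genes are paternally and red ones maternally expressed; filled points, at Dio3, Phlda2, Dlk1 and Mkrn3, have an adjusted p below 0.05.

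**Figure D5:**
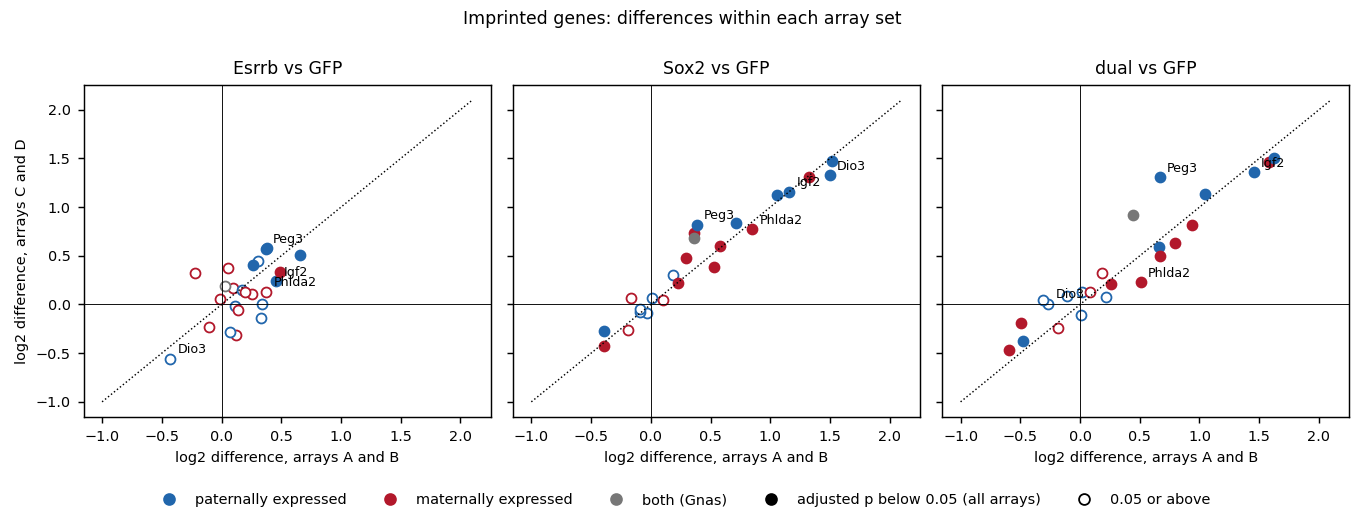
Log2 difference from GFP computed in arrays A and B (x axis) and in arrays C and D (y axis) for the 24 genes, in the Esrrb, Sox2 and dual knockdowns; the dotted line marks equal values and filled points passed over all arrays. Peg3 lies above the line in all panels (0.37 and 0.57, 0.39 and 0.82, 0.67 and 1.31).

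Other genes linked to imprinting were read from wider lists. Of 41 further genes reported as imprinted in some tissue, 14 were tested: 0 were higher and 2 lower in the Esrrb knockdown, 5 and 2 in the Sox2 knockdown, and 5 and 2 in the dual knockdown, where 5.86%, 21.7% and 22.1% of all genes were higher and 5.77%, 21.5% and 22.3% lower, with medians of 0.07, 0.13 and 0.00. Cobl, an actin nucleator, changed most, at -1.09, -1.48 and -1.62 in the Esrrb, Sox2 and dual knockdowns (adjusted p of 1.17e-06, 8.58e-09 and 2.27e-09 in limma). Slc38a4, an amino acid transporter imprinted in the placenta, was higher by 0.66 in the Sox2 knockdown and 1.24 in the dual knockdown (adjusted p = 0.0199 and 2.16e-04 in limma). In these knockdowns Sfmbt2, a Polycomb group gene with a role in trophoblast, read higher by 0.92 and 0.81. Sfmbt2 was detected on 1 of the 4 GFP arrays and 3 of the 4 Esrrb arrays, and it was tested because of the groups where it is high, so these differences support nothing. Gpr1, like Sfmbt2 among the 5 genes higher in each of these knockdowns, was detected on 2 of the 4 GFP arrays. It was tested through the knockdown groups, and its calls are read no further.

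Genes that set or keep imprints were read from a further list. Of 30 listed, 17 were tested, with medians of 0.06, -0.25 and -0.19 in the Esrrb, Sox2 and dual knockdowns. Of the 17, 2 were higher and 1 lower in the Esrrb knockdown, 0 and 6 in the Sox2 knockdown, and 0 and 7 in the dual knockdown. Over all genes 5.86%, 21.7% and 22.1% were higher and 5.77%, 21.5% and 22.3% lower. Zfp42, a zinc finger protein that is also an ES cell marker, was at -0.89, -1.41 and -1.54 in the Esrrb, Sox2 and dual knockdowns (adjusted p = 3.21e-04, 5.66e-07 and 1.83e-07 in limma). Trim28, the corepressor that Zfp57 brings to methylated control regions, was at -0.22 in the Esrrb knockdown, which did not pass (adjusted p = 0.0575 in limma), and at -0.38 and -0.40 in the Sox2 and dual knockdowns (5.84e-04 and 3.26e-04). Eed, a Polycomb subunit, was at -0.49 in the dual knockdown (adjusted p = 0.00491 in limma). Dnmt1, the maintenance methyltransferase, passed in none of the 3 comparisons, at -0.14, -0.22 and -0.19. Dnmt3b, a de novo methyltransferase, was higher by 0.30 in the Esrrb knockdown (adjusted p = 0.00744 in limma).

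In the wider Igf axis, 15 of 22 listed genes were tested, with medians of 0.19, 0.17 and 0.21 in the Esrrb, Sox2 and dual knockdowns. Of the 15, 4 were higher and 1 lower in the Esrrb knockdown, 7 and 1 in the Sox2 knockdown, and 7 and 0 in the dual knockdown. Over all genes 5.86%, 21.7% and 22.1% were higher and 5.77%, 21.5% and 22.3% lower. Igfbp6, a binding protein that prefers Igf2, was higher by 1.75 in the Sox2 knockdown and 1.89 in the dual knockdown (adjusted p = 7.16e-08 and 2.66e-08 in limma), against 0.19 in the Esrrb knockdown, which did not pass. Irs2, which carries the signal of the insulin and Igf1 receptors, was higher by 0.45, 1.02 and 1.47 in the Esrrb, Sox2 and dual knockdowns (adjusted p = 0.00247, 1.71e-07 and 3.30e-09 in limma). Igfbp4, another binding protein, was higher by 0.30, 0.67 and 1.07 (adjusted p = 0.0436, 2.12e-05 and 1.61e-07).

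Markers of trophectoderm, a lineage in which many of these imprinted genes are active, moved with the Sox2 and dual groups. Of 17 markers, 13 were tested, and 5 were higher and 1 lower in the Esrrb knockdown, 10 and 0 in the Sox2 knockdown, and 10 and 0 in the dual knockdown. Over all genes 5.86%, 21.7% and 22.1% were higher and 5.77%, 21.5% and 22.3% lower. Hand1, Plac1 and Ascl2 among the 13 were not detected on every array. They were tested through knockdown groups where they are high, so their calls support nothing. The summed intensity of the 13 was 9963 to 10879 on the Esrrb arrays, 25406 to 30883 on the Sox2 arrays and 26703 to 35260 on the dual arrays, against 10003 to 11107 on the GFP arrays. The bright keratins Krt8 and Krt18 made up much of this rise. Krt8 averaged 10480 on the Sox2 and 11801 on the dual arrays, against 2845 with GFP, and Krt18 5472 and 5918, against 956. Tfap2c, at 3707 and 3864 against 4562, was not called in either. Eomes, Elf5 and Tpbpa were not detected, Prl3d1 had no probe, and Cdx2 differed from GFP by 0.16, -0.22 and 0.26, which did not pass. Markers of extraembryonic endoderm, of which 7 of 10 were tested, summed to 4710 to 5678 on the Esrrb arrays, 8049 to 10010 on the Sox2 arrays and 9372 to 11142 on the dual arrays, against 5163 to 5779 on the GFP arrays. Of the 7, 0 were higher and 1 lower in the Esrrb knockdown, 4 and 1 in the Sox2 knockdown, and 4 and 0 in the dual knockdown. The shares over all genes are those given above for the trophectoderm markers. Ascl2 stands in both the imprinted and the trophectoderm list. The part of these markers' cells in the changes of the imprinted genes was not tested.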

How the data were processed

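Per the file headers, the deposited intensities carry no normalization across arrays, and values below 0 on every array show that a background level had been subtracted. The deposited detection score of each probe and array is called a detection p-value in the file header, but it rises with the intensity and was read as 1 minus that p. The authors also deposited 1 processed ratio per probe and group, by a method not stated in these sources, which served only as an alternative.

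Of 25697 probes, 23978 had 1 current symbol, 0 had several and 1719 had none, through the platform annotation, with 23962 symbols matched by gene identifier. In limma 3.58.1 (R 4.3.3), neqc corrected the background with the detection p-values, added an offset of 16, applied quantile normalization over the 16 arrays and took log2. The detection rule kept 11591 probes, and the brightest probe per gene left 8248 genes. These were tested with lmFit and eBayes in 1 fit over the 4 groups, without covariates, for 7 comparisons. The pipeline was tested on simulated data first. The number of arrays limits the precision.

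The array letters come from the column names and no source says what they share. Arrays of one letter deviated together from their group means (correlations of 0.143 to 0.446 over 24 pairs), as did the other letter of the same set, A with B and C with D (0.223 to 0.450), while the sets were opposed (-0.450 to -0.139). Of 16 arrays, 7 correlated best with their own letter. Since every same-letter correlation was above 0.1, the letter was also fitted as a replicate block.

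Alternatives were median scaling, no scaling, no further background step, an offset of 50, stricter and no detection filters, letter or set as a block, each set alone, set means, all kept probes, trended robust variances, and leaving out each array. The members, gene lists, motifs and alternatives were chosen with earlier results of these data known. Members called against GFP in at least 1 knockdown are given on every array, the others by group means. From the wider lists the called genes with the largest changes are named, and a few further ones were named after their values were seen. Promoter windows are those of RefSeq (GRCm38.p6).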

Additional observations from a re-analysis of the deposited data

Results flagged for a closer look

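In the main fit the effect of one hairpin depended on the other for 4 members, by limma's test of the interaction. The log2 interaction was -0.69 for Phlda2, -0.48 for Dlk1, -1.05 for Dio3 and -0.38 for Mkrn3. With arrays scaled to a common median only Dio3 passed. The Dio3 call was lost within arrays C and D (adjusted p = 0.256 in limma) and with no detection filter (0.0544).

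Within a group of 4 arrays, 5 of 96 gene and group pairs had 1 array far from the other 3 by Dixon's ratio at its 95% critical value, which chance passes in about 1 in 20 groups. Usp29 was at 6.23 on the Esrrb array C, against 6.002 to 6.014 on the other Esrrb arrays. Grb10 was at 11.64 on the dual array C, against 11.91 to 11.95. Nap1l4 was at 12.63 on the dual array D, against 12.51 to 12.52. Commd1 was at 11.09 on the dual array B, against 11.29 to 11.32. Inpp5f was at 7.52 on the dual array B, against 8.26 to 8.37. Of the 5, 4 lie in the dual group.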

How the results depend on the processing

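For the 19 members called against GFP in at least 1 knockdown, 73 of 133 differences over 7 comparisons were called. Under the alternatives other than leaving out an array, 1602 values kept their side of the threshold, 87 lost it, 26 gained it and 0 reversed. Without 1 array, 2081 kept it, 31 lost it, 16 gained it and 0 reversed. In the authors' deposited table of ratios 0 of their differences from GFP had the opposite direction where called. The causes of the changes below were not tested, except that single array sets hold fewer arrays. Ascl2, Usp29 and Peg10 were not detected on every array, so their differences are the least certain.

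Scaling to a common median gave 0 members higher and 201 genes called for Esrrb against GFP, 1 member lower and 1623 genes for Sox2 against GFP, and 1844 genes for dual against GFP. It gave 1 lower and 1289 genes for dual against Esrrb, 1 lower and 48 genes for dual against Sox2, 7 higher, 2 lower and 1513 genes for Sox2 against Esrrb, and 1 lower and 25 genes for the interaction. The maternal medians were then 0.28 and 0.19 in the Sox2 and dual knockdowns. Without scaling, the median of all genes itself moved to -0.10, -0.14 and -0.14 in the Esrrb, Sox2 and dual knockdowns and to 0.12 for the interaction. The paternal medians were then 0.14, 0.32 and -0.032 and the maternal ones 0.011, 0.18 and 0.078, or 0.24, 0.45 and 0.11 and 0.11, 0.32 and 0.22 relative to all genes. The interaction medians were -0.15 and -0.012. Esrrb had 3 members higher and 1 lower, and the interaction 2 lower and 367 genes.

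With only the A and B arrays, Esrrb had 2 higher and 325 genes, Sox2 1 lower and 2156 genes, dual against Esrrb 2019 genes, dual against Sox2 1 lower and 100 genes, Sox2 against Esrrb 2 lower and 2225 genes, and the interaction 1 lower and 25 genes. The paternal median turned to -0.076 for dual against Esrrb and -0.065 for Sox2 against Esrrb, against 0.17 and 0.14 over all arrays, and was 0.28 for Sox2 against GFP (maternal 0.30). With only the C and D arrays, Esrrb had 3 higher and 480 genes, Sox2 and dual 1 lower each, dual against Esrrb 3 lower, dual against Sox2 1 lower and 110 genes, and the interaction 0 lower and 36 genes. The paternal medians were 0.56 for Sox2 against GFP, 0.40 and 0.34 for dual and Sox2 against Esrrb, and -0.17 for the interaction.

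With the letter as a replicate block, 1 member was lower with Esrrb and 1 higher for dual against Sox2, and Dio3 also passed for dual against Esrrb (adjusted p = 0.0377 in limma), and with those named above no other call of these members changed. The set as a block gave the same 2 counts, with 813 genes for dual against Sox2 and 432 for the interaction. Set means gave 1 lower with Esrrb, 312 genes for dual against Sox2, and 1 lower and 79 genes for the interaction. Detection on every array gave 1 lower with Esrrb, 1 higher for dual against Sox2, and maternal medians of 0.30 and 0.23 for Sox2 against GFP and against Esrrb. An offset of 50 gave 1 higher for dual against Sox2, a paternal median of 0.32 for Sox2 against GFP and a maternal one of 0.21 for Sox2 against Esrrb. Trended, robust variances gave 4 higher for dual against Sox2. With no detection filter the paternal medians were 0.099 and 0.035 in the Esrrb and Sox2 knockdowns, 0.022 for dual against Esrrb, 0.00081 for Sox2 against Esrrb and -0.095 for the interaction. The maternal ones were 0.055, 0.075 and 0.12 in the Esrrb, Sox2 and dual knockdowns, 0.0019 for dual against Esrrb and 0.034 for Sox2 against Esrrb. That setting left 326 genes for dual against Sox2, and 2 members lower and 127 genes for the interaction. Without members imprinted mainly in 1 tissue, the paternal medians were 0.33 and 0.60 in the Esrrb and Sox2 knockdowns and 0.36 for dual against Esrrb, and the maternal ones 0.20, 0.57 and 0.54 in the Esrrb, Sox2 and dual knockdowns, 0.31 for dual against Esrrb and 0.088 for dual against Sox2.

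Leaving out each array in turn, members lower with Esrrb ranged from 0 to 1 and higher for dual against Sox2 from 0 to 2. The paternal median ranged from 0.19 to 0.33 with Esrrb, 0.063 to 0.25 for dual against Esrrb and 0.032 to 0.23 for Sox2 against Esrrb, and the maternal median from 0.22 to 0.37 for Sox2 against Esrrb. Genes called ranged from 333 to 571 for dual against Sox2 and 149 to 261 for the interaction.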
